A study of Rattus norvegicus with 252 samples.

Results

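Of the 32883 rat genes listed in the deposited count table, 3 are described here, known by their Ensembl identifiers ENSRNOG00000005609, ENSRNOG00000016244 and ENSRNOG00000059311. All were chosen by their measured counts, for a low level in the cerebellum of rats that carry the Q130 allele. ENSRNOG00000005609 and ENSRNOG00000016244 were lower than in wild type at both 6 and 12 months, and ENSRNOG00000059311 had the smallest p of all genes at 12 months. No name was found for these identifiers in the reference tables used here, so no function is given for them.

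The tested animals were Long Evans rats heterozygous for the Q130 knock-in (Q130), in which the huntingtin gene carries a lengthened run of CAG codons, and they were set against wild type (WT) rats. Q130 and WT animals of both sexes were taken at ages of 2, 6 and 12 months, with 5 females and 5 males per genotype and age, and RNA from the cerebellum, cortex, hippocampus and striatum of each was sequenced. The labels name no treatment. The libraries of 2 and 6 months came from batch 1 and those of 12 months from batch 2, so age and batch cannot be told apart at 12 months, while each comparison of genotypes lay within 1 batch.

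Huntington disease is caused by a lengthened CAG repeat in the huntingtin gene, which is expressed throughout the brain and the body, and it damages the projection neurons of the striatum first. The cerebellum, which tunes movement and balance, is built mainly of very numerous small granule cells, and its output leaves through the far larger Purkinje cells. It is usually counted among the regions that are less damaged in the disease. In bulk tissue, fewer cells of a type and less RNA per cell cannot be told apart.

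The 240 study libraries came from 60 animals, and with 12 repeat libraries the totals lay between 25.3 and 50.8 M counts (median 34.5 M, where M is 1000000). Replicates were separate animals, and every pair within a group differed by more than counting noise. In 9 study libraries, 8 from Q130 and 1 from WT rats, the median correlation with the other libraries of the labelled tissue was 0.859 to 0.962, against at least 0.973 in the rest, and 3 of the 9 were closer to another tissue. They are called libraries that stand apart, and results that rest on them are given with and without them. Cell type markers were not read, because they could not be matched to identifiers. Animals shared 30 identifier stems, whose meaning the labels do not state. At 12 months none of 12 stems held both genotypes, so stem and genotype cannot be told apart there, and at 6 months 1 of 12 did.

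The first question was how low the 3 genes lay in the Q130 cerebellum and at which ages. Levels are counts per 1000000 counts (CPM), scaled for library composition. At 2 months ENSRNOG00000005609 averaged 520 ± 72 CPM in Q130 and 549 ± 29.5 CPM in WT cerebella (SD, n = 10 each), with a lowest, median and highest library of 347, 544 and 573 CPM in Q130 and of 520, 538 and 607 CPM in WT. The 2 lowest Q130 libraries, males 1 and 2 with 347 and 437 CPM, were those that stand apart in this tissue, and the other Q130 libraries lay within the WT range. Without them the Q130 mean was 551 ± 17.1 CPM (n = 8).

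At 6 months the same gene averaged 405 ± 13.4 CPM in Q130 and 462 ± 22.8 CPM in WT cerebella. Q130 libraries ran from 385 to 424 CPM (median 406) and WT libraries from 431 to 496 CPM (median 466), so the genotypes did not overlap. At 12 months it averaged 330 ± 19.8 CPM in Q130 and 422 ± 45.5 CPM in WT cerebella. The lowest, median and highest libraries were 294, 335 and 352 CPM in Q130 and 306, 430 and 474 CPM in WT. WT female 1, at 306 CPM, lay inside the Q130 range, while the other 9 WT libraries were all above the highest Q130 library. The cerebellar libraries of 6 and 12 months chose this gene, so these separations describe the choice and are no test. The share of all genes that separate in this way was not counted.

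ENSRNOG00000016244 showed a similar course. At 2 months it averaged 462 ± 55.1 CPM in Q130 and 472 ± 25.5 CPM in WT cerebella, and 485 ± 30.1 CPM in the 8 Q130 libraries that do not stand apart. At 6 months the lowest, median and highest values were 350, 397 and 424 CPM in Q130 and 424, 447 and 475 CPM in WT, with every Q130 library below the lowest WT library, although the closest pair rounds to the same value. At 12 months they were 341, 367 and 408 CPM in Q130 and 356, 441 and 484 CPM in WT. WT female 1 was again the lowest WT library, and the other 9 WT libraries were above the highest Q130 library. Here too the libraries of 6 and 12 months chose the gene, so the separations only describe the choice.

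ENSRNOG00000059311 was the least abundant of the 3 genes, with 189 to 621 counts per cerebellar library. At 2 months it averaged 10.9 ± 3.23 CPM in Q130 and 12.3 ± 1.3 CPM in WT cerebella. Q130 males 1 and 2 had 4.94 and 5.7 CPM, and without them the Q130 mean was 12.3 ± 1.51 CPM, the same as the WT mean to that precision. At 6 months the lowest, median and highest libraries were 8.22, 10.4 and 13.1 CPM in Q130 and 9.22, 12.9 and 15.9 CPM in WT, and the ranges overlapped. At 12 months they were 6.47, 7.99 and 9.28 CPM in Q130 and 7.78, 11.9 and 15.0 CPM in WT, where WT female 1 once more had the lowest WT value and the remaining WT libraries lay above every Q130 library. The libraries of 12 months chose this gene, so that separation is likewise a description.

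**Figure D1:**
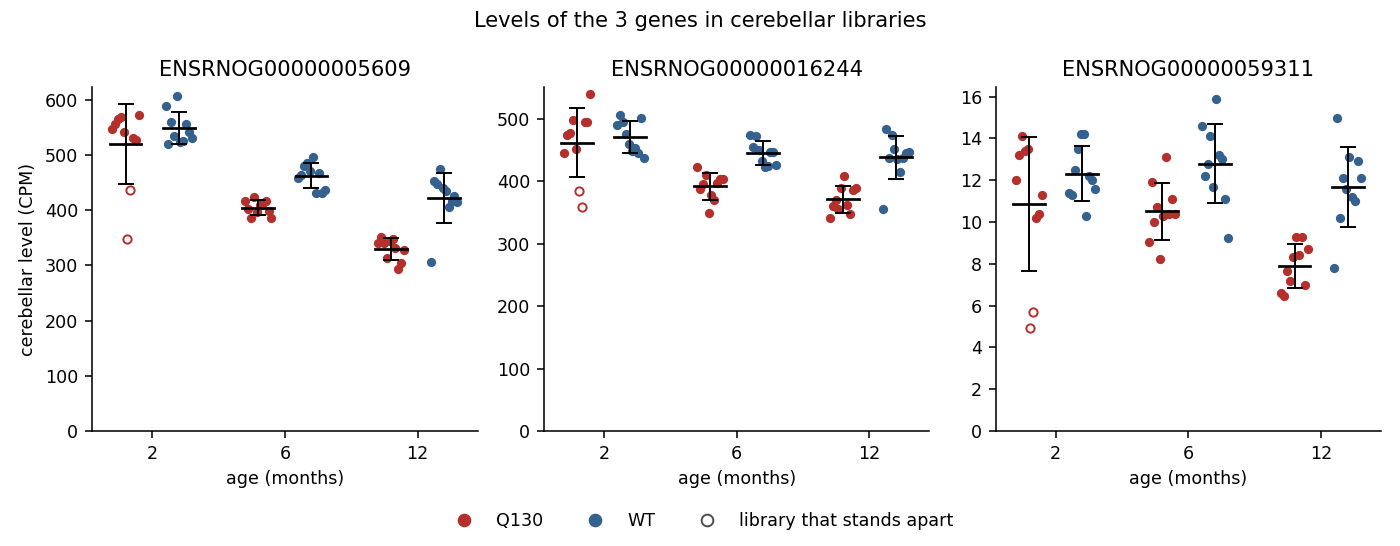
Level of each gene in cerebellar libraries (CPM, linear axis from 0) against age in months, with Q130 in red left of WT in blue. Each point is 1 animal, open points are libraries that stand apart, and black marks give the mean and SD of 10 libraries. The 2 open points are the lowest at 2 months in all panels, and the lowest WT point at 12 months is the same animal in all panels.

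Genotype differences were estimated with edgeR's quasi-likelihood test over all genes that passed a filter on low counts, with sex as a covariate. A gene counts as called where its p, adjusted by Benjamini-Hochberg over all genes tested, was under 0.05. At 6 months the log2 fold change of Q130 over WT was -0.20 ± 0.03 (SE) for ENSRNOG00000005609 and -0.19 ± 0.03 for ENSRNOG00000016244. At 12 months it was -0.35 ± 0.05 and -0.24 ± 0.04 for those genes, and -0.57 ± 0.09 for ENSRNOG00000059311, which is a level 32.4% lower in Q130. These 5 values chose the genes and carry no test.

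Of 15305 genes tested at 6 months 0.242% were called lower in Q130, and of 15177 tested at 12 months 0.705% were. The count of genes called lower at both ages was 9 of 15133 tested in both. Ordered by the larger of their adjusted p values, ENSRNOG00000005609 came 2nd and ENSRNOG00000016244 came 3rd among them. The last gene inside the threshold had 0.0493 and the first outside 0.0501, given only to describe the choice. At 12 months ENSRNOG00000059311 came 1st by p and ENSRNOG00000005609 2nd. By size they were not the extremes. At 6 months ENSRNOG00000005609 ranked 30th and ENSRNOG00000016244 32nd among the 37 genes called lower, and both changed less than the median of -0.24. Among genes called lower at 12 months, ENSRNOG00000059311 ranked 7th, ENSRNOG00000005609 22nd and ENSRNOG00000016244 44th, where the median log2 fold change was -0.21 and the lowest -0.83.

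The genotype comparisons of the cerebellum that the choice did not use gave no call of these genes by edgeR with all libraries. At 2 months, where 0% of 15349 genes were called in either direction (244 had an unadjusted p under 0.05), the log2 fold change of Q130 over WT was -0.10 ± 0.07 for ENSRNOG00000005609, -0.04 ± 0.07 for ENSRNOG00000016244 and -0.22 ± 0.14 for ENSRNOG00000059311 (edgeR, adjusted p = 0.973 for each). Without Q130 males 1 and 2 these values were -0.01, 0.03 and -0.04. The 95% interval for ENSRNOG00000005609 was -0.25 to 0.05 with all libraries, which reaches past the size seen at 6 months, and -0.08 to 0.06 without those males, which does not. Without them the interval was -0.05 to 0.11 for ENSRNOG00000016244 and -0.18 to 0.10 for ENSRNOG00000059311. At 6 months ENSRNOG00000059311 had a log2 fold change of -0.29 ± 0.09, with an unadjusted p of 0.00315 and an adjusted p of 0.125 (edgeR), beside 0.287% of genes called in either direction. It ranked 384th by p at that age, where 2120 of 15305 genes had an unadjusted p under 0.05. Of its Q130 libraries 9 of 10 were below the WT median, but the share of all genes with such a count was not taken. DESeq2 gave an adjusted p of 0.0481, and edgeR gave 0.0219 without WT male 5, the WT library with the lowest level. Both settings called more genes in all than edgeR with all libraries, which called 44. Without WT male 5 edgeR called 471 genes, and the DESeq2 count is given further on. These calls are therefore not particular to this gene.

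At 12 months, leaving out 1 library at a time gave log2 fold changes of -0.40 to -0.33 for ENSRNOG00000005609. The range was -0.26 to -0.22 for ENSRNOG00000016244 and -0.61 to -0.51 for ENSRNOG00000059311. The largest drop of each gene came without WT female 1, and the libraries of this age chose the genes. Only 1 stem at 6 months held both genotypes, a Q130 and a WT male. Both libraries were among those that chose ENSRNOG00000005609 and ENSRNOG00000016244, for which every Q130 library lay below every WT library at that age. The pair is therefore no separate check of those genes, and for ENSRNOG00000059311 it is 1 animal per genotype. In that pair ENSRNOG00000005609 had 410 CPM in the Q130 and 468 CPM in the WT animal. ENSRNOG00000016244 had 379 CPM in the Q130 and 447 CPM in the WT animal, and ENSRNOG00000059311 had 10.3 CPM in the Q130 and 13.0 CPM in the WT animal. At 2 months 5 of 6 stems held both genotypes, and with the stem as a block the log2 fold changes were -0.10, -0.06 and -0.26, with an adjusted p of 0.877 for each gene (edgeR). That fit kept Q130 males 1 and 2 of this age, which stand apart, and was not run without them.

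The second question was where in the brain these genes are expressed, for which per-length levels, in transcripts per 1000000 (TPM), were read from the deposited table, leaving out libraries that stand apart. ENSRNOG00000005609 averaged 468 ± 87.5 TPM in the cerebellum (SD, n = 58 libraries of all ages and both genotypes), 21.0 ± 2.08 TPM in the hippocampus (n = 58), 7.64 ± 0.991 TPM in the cortex (n = 58) and 0.794 ± 0.683 TPM in the striatum (n = 57). The ranges of the 4 tissues did not overlap, from 310 to 621 TPM in the cerebellum down to 0 to 3.51 TPM in the striatum. How many of all genes separate the tissues in this way was not counted. In WT cerebellum at 2 months it lay above 99.4% of listed genes.

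ENSRNOG00000016244 was not restricted to the cerebellum. It averaged 239 ± 28.9 TPM there, 239 ± 21.9 TPM in the cortex, 219 ± 14.5 TPM in the hippocampus and 34.2 ± 4.73 TPM in the striatum. The first 3 tissues overlapped widely, and the striatal range of 23.3 to 45.1 TPM lay below all of them. ENSRNOG00000059311 averaged 12.9 ± 2.67 TPM in the cerebellum and between 0.0304 and 0.0402 TPM in the forebrain tissues. It was listed at 0 counts in 24 of 58 cortical, 17 of 58 hippocampal and 16 of 57 striatal libraries, where a count of 0 allows up to 0.0607 to 0.118 CPM by counting error alone. The highest count in a forebrain library was 8, and the lowest in a cerebellar library was 209. For these separations of tissues, too, the share of all genes was not counted.

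**Figure D2:**
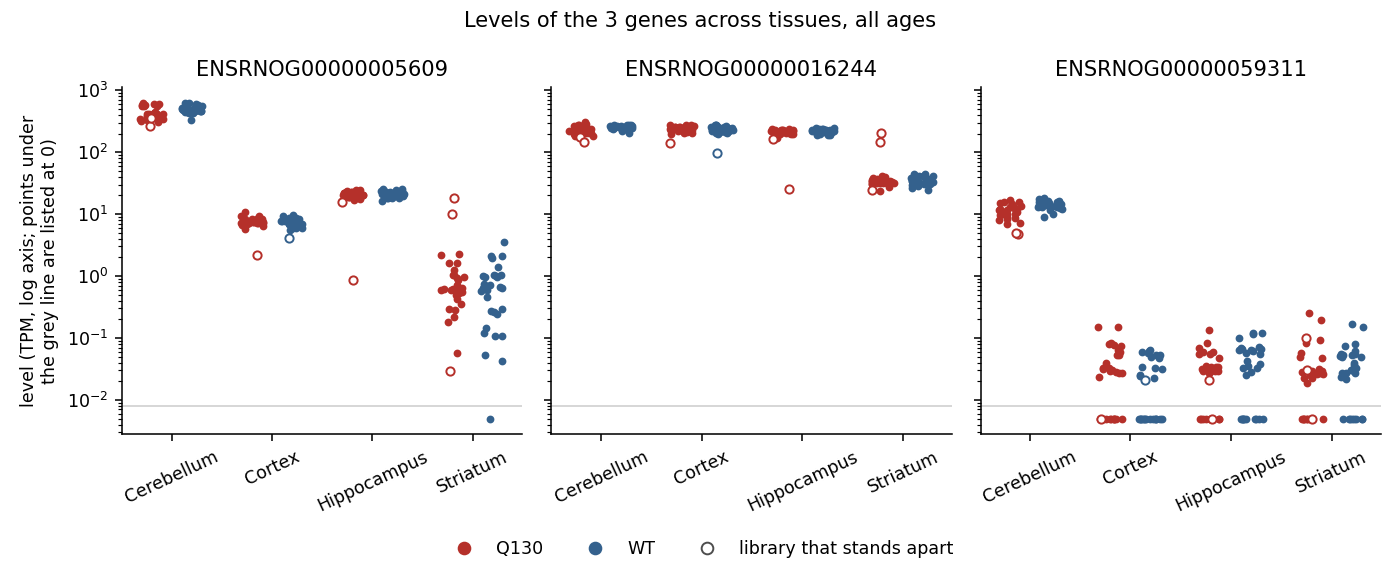
Level of each gene (TPM, log axis) in the 4 tissues, Q130 in red left of WT in blue, with 1 point per study library of any age and points under the grey line listed at 0. Open points are libraries that stand apart. ENSRNOG00000005609 and ENSRNOG00000059311 are highest in the cerebellum, while ENSRNOG00000016244 is at like levels in all tissues but the striatum.

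Tissues were compared in the 10 WT animals of 2 months with the animal as a block (edgeR). Of 16194 genes, 41.3%, 41.3% and 42.3% were called higher in the cerebellum than in the cortex, hippocampus and striatum, so a call by itself is common in this comparison. ENSRNOG00000005609 had log2 fold changes of 5.96 ± 0.15 over the cortex, 4.51 ± 0.14 over the hippocampus and 8.71 ± 0.19 over the striatum, all called. ENSRNOG00000016244 was 2.57 ± 0.03 higher than in the striatum on the log2 scale (adjusted p = 9.34e-40, edgeR). Against the cortex its log2 fold change was -0.25 ± 0.03 (adjusted p = 2.79e-09, edgeR) on composition-scaled counts, but per length the WT means at 2 months were 259 ± 13.6 TPM in the cerebellum and 261 ± 9.27 TPM in the cortex, so that difference depends on the scale. Against the hippocampus it was 0.06 ± 0.03 and was not called (adjusted p = 0.0923, edgeR). ENSRNOG00000059311 had too few forebrain counts for a fold to be given.

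The third question was whether the genotype difference was also seen in the forebrain. ENSRNOG00000005609 and ENSRNOG00000016244 could be tested in the 9 forebrain comparisons of 1 tissue at 1 age, and ENSRNOG00000059311 did not pass the filter in any of them. None of the 18 tests was called by edgeR, and 1 had an unadjusted p under 0.05. That test was of ENSRNOG00000005609 in the striatum at 12 months, which with all libraries was higher in Q130. Its log2 fold change was 1.75 (95% interval 0.24 to 3.26, unadjusted p = 0.0255, adjusted p = 0.496, edgeR). The share of all genes called in these comparisons was 0% except in the cortex at 2 months (0.00645%) and the striatum at 2 months (2.59%). Of the 18 estimates, 9 were negative.

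Over all ages, 0.00622% of genes were called in the cortex, 0.0125% in the hippocampus and 0.0124% in the striatum, and neither gene was among them. In the cortex the log2 fold change of Q130 over WT was 0.01 ± 0.07 for ENSRNOG00000005609, with a 95% interval of -0.12 to 0.14, and 0.03 ± 0.04 for ENSRNOG00000016244, with an interval of -0.04 to 0.10. At 12 months alone the cortical value of ENSRNOG00000005609 was -0.06 with an interval of -0.38 to 0.25, which includes both cerebellar estimates of that gene, and 0.05 with an interval of -0.09 to 0.19 without Q130 male 4, which stands apart. No test of the difference between tissues was made, because the cerebellar values chose the genes. In the hippocampus the values were -0.04 ± 0.09 and -0.08 ± 0.07 (edgeR, adjusted p = 0.93 and 0.9). Their intervals, -0.23 to 0.14 and -0.22 to 0.07, include the cerebellar estimates of 6 months. Without the libraries that stand apart, the hippocampal values were 0.01 for ENSRNOG00000005609 and -0.03 for ENSRNOG00000016244.

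Striatal values over all ages were 1.16 ± 0.43 for ENSRNOG00000005609 and 0.28 ± 0.14 for ENSRNOG00000016244 (edgeR, adjusted p = 0.766 and 0.769). Of the 3 striatal libraries that stand apart, all Q130, a pair was closer to the hippocampus than to the striatum and high for both genes. Q130 male 1 at 6 months had 21.2 CPM of ENSRNOG00000005609 and 447 CPM of ENSRNOG00000016244, and Q130 female 2 at 12 months had 11.3 and 307 CPM. The next highest libraries of those groups had 2.13 and 90.0 CPM at 6 months and 1.17 and 90.5 CPM at 12 months. The hippocampal library of the same 6-month animal had 1.22 and 65.0 CPM, at the level of striatal libraries. The third, Q130 male 3 at 12 months, had 0.0321 CPM of ENSRNOG00000005609. Without all 3, the striatal log2 fold changes over all ages were 0.08 and -0.02, and the pair was not left out alone. For ENSRNOG00000005609 the values by age were then -0.73 at 6 months (interval -1.89 to 0.43, adjusted p = 0.932, edgeR) and 0.88 at 12 months (interval 0 to 1.77, adjusted p = 0.381, edgeR). At 12 months it averaged 0.715 CPM in the 8 remaining Q130 and 0.398 CPM in the 10 WT striata. Those libraries held only 11 to 34 counts of the gene in Q130 and 3 to 33 in WT. Of the 8 Q130 libraries 0 lay below the WT median, but the share of all genes with such a count was not taken.

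The genes also differed between ages. In Q130 cerebella ENSRNOG00000005609 averaged 520, 405 and 330 CPM at 2, 6 and 12 months, and in WT cerebella 549, 462 and 422 CPM. ENSRNOG00000016244 averaged 462, 392 and 371 CPM in Q130 and 472, 446 and 439 CPM in WT cerebella at those ages. For ENSRNOG00000059311 the Q130 means were 10.9, 10.5 and 7.9 CPM and the WT means 12.3, 12.8 and 11.7 CPM. The step from 2 to 6 months lies within batch 1 and was tested over both genotypes in equal numbers. It shares the 6-month libraries with the comparison that chose 2 of the genes. Those 2 genes were chosen for low Q130 levels there, so part of their pooled cerebellar drop can follow from the choice. The means of ENSRNOG00000016244 fell from 472 to 446 CPM in WT and from 462 to 392 CPM in Q130 cerebella. No age estimate in WT alone was made.

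At 6 months ENSRNOG00000005609 was lower than at 2 months in the cerebellum by a log2 fold change of -0.30 ± 0.04 (adjusted p = 2.67e-07, edgeR), and ENSRNOG00000016244 by -0.16 ± 0.04 (adjusted p = 0.00201, edgeR), beside 11.6% of 15724 genes called lower there. ENSRNOG00000059311 had 0.01 ± 0.09 and was not called (adjusted p = 0.935, edgeR). In the cortex, where 6.94% of genes were called lower at 6 months, ENSRNOG00000016244 fell by 0.23 on the log2 scale (SE 0.04, adjusted p = 9.99e-05, edgeR), while ENSRNOG00000005609 had 0.03 ± 0.06. Neither gene was called in the hippocampus or the striatum with all libraries, where 13.4% and 22.5% of genes were called in either direction. Without those that stand apart, ENSRNOG00000005609 was called in the hippocampus at -0.11 (adjusted p = 0.0311, edgeR).

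Females and males were compared over all ages and both genotypes. No gene of the 3 was called in any tissue it was tested in, beside 1.88% of genes in the cerebellum, 0.554% in the cortex, 0.499% in the hippocampus and 0.478% in the striatum. The largest of the cerebellar differences, female over male, was 0.07 ± 0.03 for ENSRNOG00000005609 (adjusted p = 0.375, edgeR). The genotype difference itself was not shown to differ between the sexes: no gene, among the 3 or in any tissue as a whole, was called for the interaction (0% in each tissue by edgeR, with 423 to 658 genes at an unadjusted p under 0.05). In the cerebellum the 12-month ratio of Q130 over WT means for ENSRNOG00000059311 was 0.639 in females and 0.709 in males, and for ENSRNOG00000005609 it was 0.797 in females and 0.766 in males. The libraries of that age chose both genes, so these ratios describe the choice and are no test.

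The deposited table of transcript counts does not name the genes of its transcripts. A single set of transcripts summed to each gene's count within 0.05 counts in all 252 libraries, which gave 2 transcripts for ENSRNOG00000005609, 2 for ENSRNOG00000016244 and 1, ENSRNOT00000081306, for ENSRNOG00000059311. The less abundant transcript of ENSRNOG00000005609, ENSRNOT00000086507, took 13.5 ± 1.73% of the gene's counts in Q130 and 15.0 ± 1.06% in WT cerebella at 12 months (n = 10 each). An exact two-sided permutation test of genotype within sex gave p = 0.0398 there and an adjusted p of 0.418 over 21 such tests. None of the 21 was called, the smallest adjusted p being 0.368. In the cerebellum at 12 months both transcripts were lower in Q130, with 44.3 CPM in Q130 and 63.2 CPM in WT for the less abundant and 285 CPM in Q130 and 358 CPM in WT for ENSRNOT00000007662, the more abundant. They sum to the gene, which these libraries chose for a low Q130 level, so this too describes the choice. At 2 months Q130 male 1, which stands apart, had a share of 42.9%.

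For ENSRNOG00000016244 the less abundant transcript, ENSRNOT00000021858, took a larger share at later ages. At 6 months it was 8.48 ± 1.73% of the gene's cerebellar counts, against 6.64 ± 2.19% at 2 months (n = 20 each, both genotypes; permutation test within genotype and sex, p = 0.0055, adjusted p = 0.0192 over 7 tests). Without the libraries that stand apart, the difference was 1.29 percentage points with an adjusted p of 0.0517 (permutation test), which is no longer a call. In the striatum the share was 11.7 ± 3.81% at 6 months and 8.81 ± 2.54% at 2 months (adjusted p = 0.0192, permutation test), with an adjusted p of 0.00133 when those libraries were left out. The cortical share was 3.51 ± 1.01% at 6 months and 2.93 ± 0.766% at 2 months (adjusted p = 0.108, permutation test; 0.00784 without them), and the hippocampal share did not pass either way. At 12 months, in the other batch, the mean share was 10.3% in the cerebellum and 16.6% in the striatum. For 12 striatal samples a repeat library was taken as batch 2 from its column name. The share there was 11.3 ± 3.89% in the repeat and 10.3 ± 3.26% in the first library (exact sign-flip permutation test, p = 0.481), higher in 7 of 12.

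**Figure D3:**
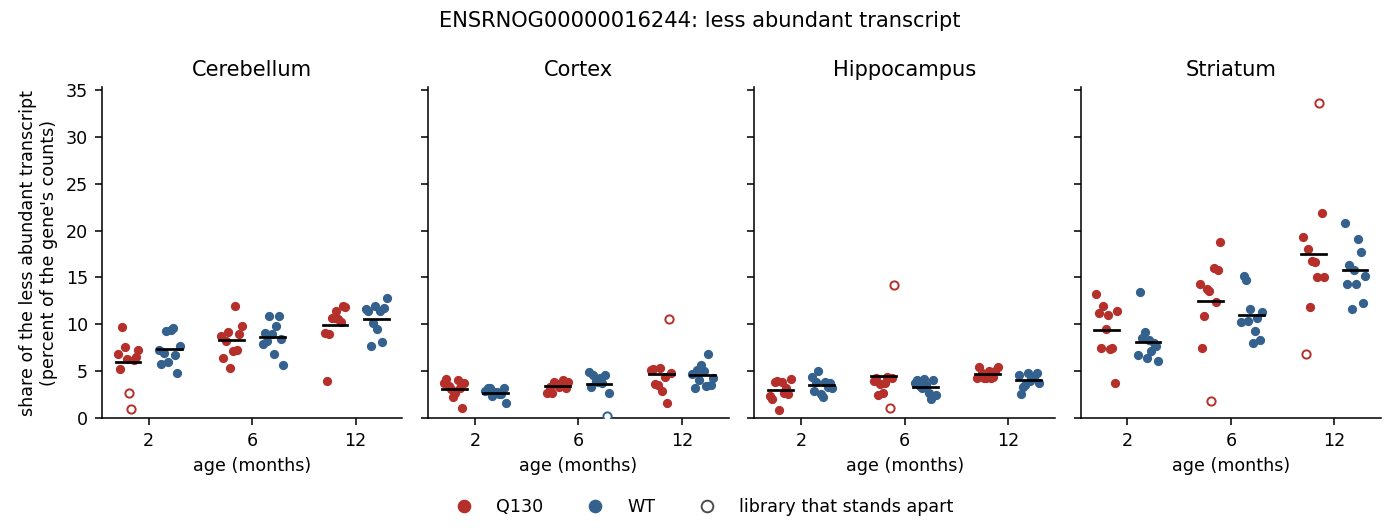
Share of ENSRNOT00000021858 in the counts of ENSRNOG00000016244 (percent, axis from 0) against age in months in each tissue, Q130 in red left of WT in blue. Each point is 1 library, open points are libraries that stand apart, and black lines are means. The cerebellar and striatal means are higher at each later age in both genotypes, and the cortex and hippocampus stay lower than both.

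Within groups, the 3 genes were correlated in the cerebellum when all libraries were used. After the mean of each age, genotype and sex was removed from log2 CPM, Pearson's r over the 60 cerebellar libraries was 0.694 between ENSRNOG00000005609 and ENSRNOG00000016244 (Spearman's rho 0.439, permutation tests, adjusted p = 0.00577 and 0.0125 over 6 relations). It was 0.713 between ENSRNOG00000005609 and ENSRNOG00000059311 (rho 0.508, adjusted p = 0.00084 and 0.006) and 0.641 between ENSRNOG00000016244 and ENSRNOG00000059311 (rho 0.384, adjusted p = 0.00512 and 0.02). Leaving out the 2 libraries farthest from the median of the first gene gave r of 0.563, 0.583 and 0.533. Without Q130 males 1 and 2 of 2 months, r was 0.573, 0.533 and 0.398 with adjusted p of 0.0369, 0.0258 and 0.0542 (permutation tests). Spearman's rho was then 0.314, 0.376 and 0.23 with adjusted p of 0.0733, 0.0623 and 0.18 (permutation tests), so none of the 3 rank correlations was called. For Pearson's r, a further 2 left out gave 0.279, 0.38 and 0.172. The relations therefore rest in part on few libraries.

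Among 13732 genes of at least 1 CPM, ENSRNOG00000016244 ranked 43rd and ENSRNOG00000059311 ranked 21st in likeness to ENSRNOG00000005609 over these 60 libraries, where the median r over all genes was -0.0222 and the 95th percentile 0.581. The other way round the ranks were far lower. In likeness to ENSRNOG00000016244, ENSRNOG00000005609 ranked 500th and ENSRNOG00000059311 1075th, with a 95th percentile of 0.675. In likeness to ENSRNOG00000059311, ENSRNOG00000005609 ranked 526th and ENSRNOG00000016244 1180th, with a 95th percentile of 0.693. The r of 0.641 between ENSRNOG00000016244 and ENSRNOG00000059311 thus lay below the 95th percentile of all genes for both. The gene most like ENSRNOG00000005609 was ENSRNOG00000014215 (r = 0.802), that most like ENSRNOG00000016244 was ENSRNOG00000026432 (r = 0.846), and that most like ENSRNOG00000059311 was ENSRNOG00000002899 (r = 0.861). Without the libraries that stand apart, the last was still first (r = 0.776) and the others were replaced.

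In the forebrain ENSRNOG00000005609 and ENSRNOG00000016244 were correlated within groups when all libraries were used, with r of 0.66 in the cortex, 0.969 in the hippocampus and 0.724 in the striatum (permutation tests, adjusted p = 0.0106, 0.0039 and 0.016). Leaving out the 2 libraries farthest from the median gave r of 0.44, 0.814 and 0.358. Without the libraries that stand apart, r was 0.118, 0.287 and -0.0707 and none was called. The calls of Pearson's r in the forebrain thus depend on the libraries that stand apart. In the hippocampus the remaining r had an adjusted p of 0.0542, and Spearman's rho was 0.327 with an adjusted p of 0.0733 (permutation tests). In the cortex and striatum rho was then 0.0975 and -0.0902.

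The repeat libraries show how far the batch moved these genes in the striatum, where both are low. In the 12 males sequenced in both batches, ENSRNOG00000016244 averaged 75.6 ± 10.5 CPM in the repeat and 78.8 ± 11.5 CPM in the first libraries (exact sign-flip permutation test, p = 0.566), and ENSRNOG00000005609 averaged 0.826 ± 0.487 CPM in the repeat and 1.08 ± 0.717 CPM in the first libraries (p = 0.391, same exact test). No cerebellar sample was repeated, so the batch's part in the cerebellar levels of 12 months was not tested.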

How the data were processed

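The authors deposited estimated counts per gene and per transcript, which are not all whole numbers, and a gene table named FPKM whose columns all have the total of TPM values and which was read as TPM. Which aligner, counter and rat assembly made them is not given in these sources. Per the labels, libraries were made with Illumina protocols. Counts were rounded and tested with edgeR 4.0.16 in R 4.3.3 (filterByExpr, TMM, robust quasi-likelihood), with limma 3.58.1 and DESeq2 1.42.0 as alternatives, all tested on simulated data. Values of CPM used TMM sizes over 252 libraries, and log2 values a pseudocount of 0.5. A library stands apart when its median correlation with its tissue is under 0.97. Repeat columns and their batch were told by the column names only, an inference. No per-sample column was left unused, and 0 of 32883 identifiers matched a reference name, so no sequence or position is given. The 3 genes were given by the choice described, and beside each the most alike gene by residual correlation is named. Genes, lists and tests were chosen with earlier results of these data known, and the transcript shares after the data were seen. Permutation tests used all regroupings or 100000 resamples. Depth is given in the report, and intervals and floors of counts cover counting error only.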

Additional observations from a re-analysis of the deposited data

Results flagged for a closer look

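Values were looked at in 54 groups of 10 libraries, and in 10 of them 1 library lay farther from the rest than a Dixon test at the 95% level allows, where chance gives about 1 in 20. Of the 10, 9 came from libraries that stand apart from their tissue as a whole. The 10 values came from 6 libraries.

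In the cerebellum, WT female 1 at 12 months had 306 CPM of ENSRNOG00000005609, next to 405 CPM in the following WT library. This library does not stand apart over all genes. In the cortex, Q130 male 4 at 12 months had 2.31 CPM of ENSRNOG00000005609 and 293 CPM of ENSRNOG00000016244, and WT male 4 at 6 months had 289 CPM of ENSRNOG00000016244. The hippocampal library of Q130 male 5 at 6 months had 1.22 CPM of ENSRNOG00000005609 and 65.0 CPM of ENSRNOG00000016244, the lowest of its group for both. In the striatum, Q130 male 1 at 6 months had 21.2 CPM of ENSRNOG00000005609 and 447 CPM of ENSRNOG00000016244, and Q130 female 2 at 12 months had 11.3 CPM and 307 CPM of these genes, the highest of their groups. Over the genes compared, the hippocampal library of Q130 male 5 had a median correlation of 0.983 with striatal and 0.933 with hippocampal libraries. The striatal library of Q130 male 1 at 6 months, from the same animal, had 0.986 with hippocampal and 0.939 with striatal libraries. Why these libraries differ was not tested.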

How the results depend on the processing

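Over 89 results and 454 alternative values, 381 were labelled the same. For tested results this means the same direction and side of the threshold. For values that chose the genes it means the same direction and a shift below the SD within groups. For counts of genes called it means a change within a set limit. A further 47 were labelled moved, 17 changed direction, 5 newly passed the threshold and 4 no longer passed it. Without the libraries that stand apart, several small differences changed sign: ENSRNOG00000016244 in the cerebellum at 2 months (0.03), ENSRNOG00000005609 over all ages in the hippocampus (0.01), ENSRNOG00000016244 over all ages in the striatum (-0.02), ENSRNOG00000059311 between 6 and 2 months in the cerebellum (-0.07), and ENSRNOG00000005609 and ENSRNOG00000016244 between those ages in the striatum (-0.50 and -0.04). Sex differences turned to 0 for ENSRNOG00000059311 in the cerebellum and -0.01 for ENSRNOG00000005609 in the hippocampus. Genotype-by-sex terms turned to 0 and -0.03 for ENSRNOG00000005609 and ENSRNOG00000059311 in the cerebellum, and to -0.06 for both tested genes in the hippocampus. Transcript-share differences of Q130 and WT turned to -0.106, -0.23 and 0.508 percentage points for ENSRNOG00000005609 (cerebellum 2, cortex 6, hippocampus 6 months) and to -0.498 for ENSRNOG00000016244 (cortex 12 months). Correlations fell to 0.398, 0.118, 0.287 and -0.0707, the 2 to 6 month shares of ENSRNOG00000016244 became 1.29 (no call, cerebellum) and 0.761 points (a call, cortex), and ENSRNOG00000005609 was called between ages in the hippocampus (-0.11). The cause was not tested.

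ENSRNOG00000059311 at 6 months passed with DESeq2 (-0.29). Leaving out 1 library gave -0.34 to -0.25, with a call in 1 of 20 fits. Counts of all genes called depended on the setting. At 2 months 2 genes were called without the libraries that stand apart, and leaving out 1 library gave 0 to 1. At 6 months 44 genes were called, against 12 with median-of-ratios size factors, 10 without a filter, 385 with DESeq2, 9 with limma-voom, 3 in 1 fit over 60 libraries and 4 to 471 leaving out 1 library (471 without WT male 5). At 12 months 238 were called, against 105 without a filter, 659 with DESeq2, 49 in the fit over 60 libraries and 50 to 446 leaving out 1 (446 without WT female 1).

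Replicate numbers did not pair the libraries (at most 5 of 10 pairs correlated over 0.1). With the number as a replicate block, 18 genes were called at 6 and 125 at 12 months, and the 3 genes' log2 fold changes at 12 months were -0.34, -0.23 and -0.55. Depth limits ENSRNOG00000059311 most, which has at most 8 counts in forebrain libraries.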
